A study of Sus scrofa domesticus with 6 samples.

Results

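Natural killer (NK) cells of the pig lung were followed as cells that carry killer-cell transcripts and no detected transcript of the T cell co-receptor complex. Single-cell RNA sequencing had been done on lungs of domestic pigs from a model of single-lung transplantation. A cell was taken when it held 1500 or more unique molecular identifiers (UMIs, each counting 1 captured RNA molecule), 0 UMIs of CD3D, CD3E, CD79A and MS4A1, and 5 or more UMIs summed over KLRK1, GNLY, GZMA, GZMB and NCR1. CD3G, which the rule also names, was not listed under that symbol. This gave 935 cells, of 19926 cells with 1500 or more UMIs in the 5 libraries used and of 43322 cells in the 6 libraries of the series. Since these genes and the absence of CD3 chose the cells, the genes of the gate are described below without a test.

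The control group was 3 libraries of whole, unsorted suspensions of donor right lung taken after retrograde perfusion. The graft group (ischemia-reperfusion injury, IRI) was 2 libraries of viable CD45+ cells sorted from allografts after 24 h of cold ischemia and 8 h of reperfusion. A further library held the sorted CD45- cells of 1 graft and entered no main comparison. CD45 marks leukocytes, so graft and sort changed together between the groups, and injury and sorting cannot be told apart here. Whether a cell of an allograft came from the donor or the recipient was not determined. Y-linked genes also differed between the groups, as given in the last paragraph. The labels do not say whether any control lung and graft share a donor, nor that the libraries came from separate animals, so p-values measure the spread between these libraries.

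NK cells are innate lymphocytes that kill infected or stressed cells by releasing perforin and granzymes, and that secrete interferon gamma and chemokines. They recognise targets through activating receptors such as NKG2D (KLRK1) and NKp46 (NCR1), which signal through small adaptors such as TYROBP and the Fc receptor gamma chain (FCER1G). Interleukin 2 and interleukin 15 keep them alive and arm them through the IL2RB chain, JAK1, JAK3 and STAT5. In the pig many NK cells carry CD8A, and activated T cells can switch on nearly every gene of the killing machinery, so that CD3 is what usually separates the lineages.

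The libraries held 25802239, 33549585 and 32573142 UMIs in the controls and 19435860 and 19098567 in the grafts. The gate took 206, 224 and 239 control cells and 152 and 114 graft cells, which is 5.61%, 4.35% and 4.75% of control cells with 1500 or more UMIs and 4.69% and 4.02% of graft cells. Their median depth was 2512, 2667 and 2421 UMIs in the controls and 2782.5 and 2939 in the grafts, and their summed depth ran from 436988 to 856118 UMIs a library. The deposited control libraries contained no cell under 1001 UMIs, whereas the graft CD45+ libraries reached down to 74 and 115. At the edge of the gate, 32, 28 and 33 control cells and 17 and 7 graft cells stood at 5 gate UMIs, and 29, 29, 21, 7 and 8 cells missed it at 4. A further 128, 131 and 155 control cells and 97 and 64 graft cells met the other terms but held 1 CD3 UMI. Cells are named by number in each library, so shared barcodes could not be judged.

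The gated cells did not all look like NK cells. KLRB1, which encodes the NK receptor CD161 and was not part of the gate, was found in 28.2%, 27.7% and 32.2% of control cells and in 38.8% and 38.6% of graft cells. Among cells with KLRB1, TYROBP was detected in 62.1, 62.9 and 46.8% of control cells and 47.5 and 54.5% of graft cells. Among cells without it, TYROBP was detected in 9.46, 8.64 and 16.7% of control and 23.7 and 35.7% of graft cells. In each of the 5 libraries the share was higher in the KLRB1-positive cells.

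NCR1, the receptor NKp46, is a gate gene, so its detection among the chosen cells is partly set by the rule and is given as a description. It was detected in 84.5, 69.4 and 64.9% of control and 72.9 and 70.5% of graft cells with KLRB1, against 10.8, 11.11 and 8.02% of control and 14.0 and 12.9% of graft cells of those without. CD5 or CD6, surface proteins of T cells, went the other way. They were detected in 3.45, 0 and 1.3% of control and 1.69 and 9.09% of graft cells with KLRB1, against 18.9, 21.0 and 21.0% of control and 14.0 and 12.9% of graft cells without. CD8A was also less often detected with KLRB1, in 25.9, 32.3 and 20.8% of control and 27.1 and 9.09% of graft cells, than without, in 55.4, 59.9 and 57.4% of control and 40.9 and 48.6% of graft cells. Cells with KLRB1 were deeper, with medians of 2604 to 3634 UMIs against 2334.5 to 2605.5 without.

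GNLY, the granule protein granulysin, is a gate gene too. It was detected in 22.4, 27.4 and 37.7% of control and 59.3 and 43.2% of graft cells with KLRB1 and in 42.6, 46.3 and 55.6% of control and 66.7 and 75.7% of graft cells without, higher without KLRB1 in all 5 libraries. XCL1, a chemokine for cross-presenting dendritic cells, was detected in 53.4, 59.7 and 50.6% of control and 49.2 and 75.0% of graft cells with KLRB1 and in 18.2, 19.8 and 16.7% of control and 18.3 and 34.3% of graft cells without. The 935 cells are called NK-gated cells here. By the genes outside the gate, they hold a KLRB1+ fraction in which TYROBP was more often detected, and a larger fraction without KLRB1 in which CD8A and CD5 or CD6 were more often detected. A cell without KLRK1 or NCR1 can pass the gate only through GNLY, GZMA or GZMB, so the opposite shares of NCR1 and GNLY are not independent of the rule.

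**Figure D1:**
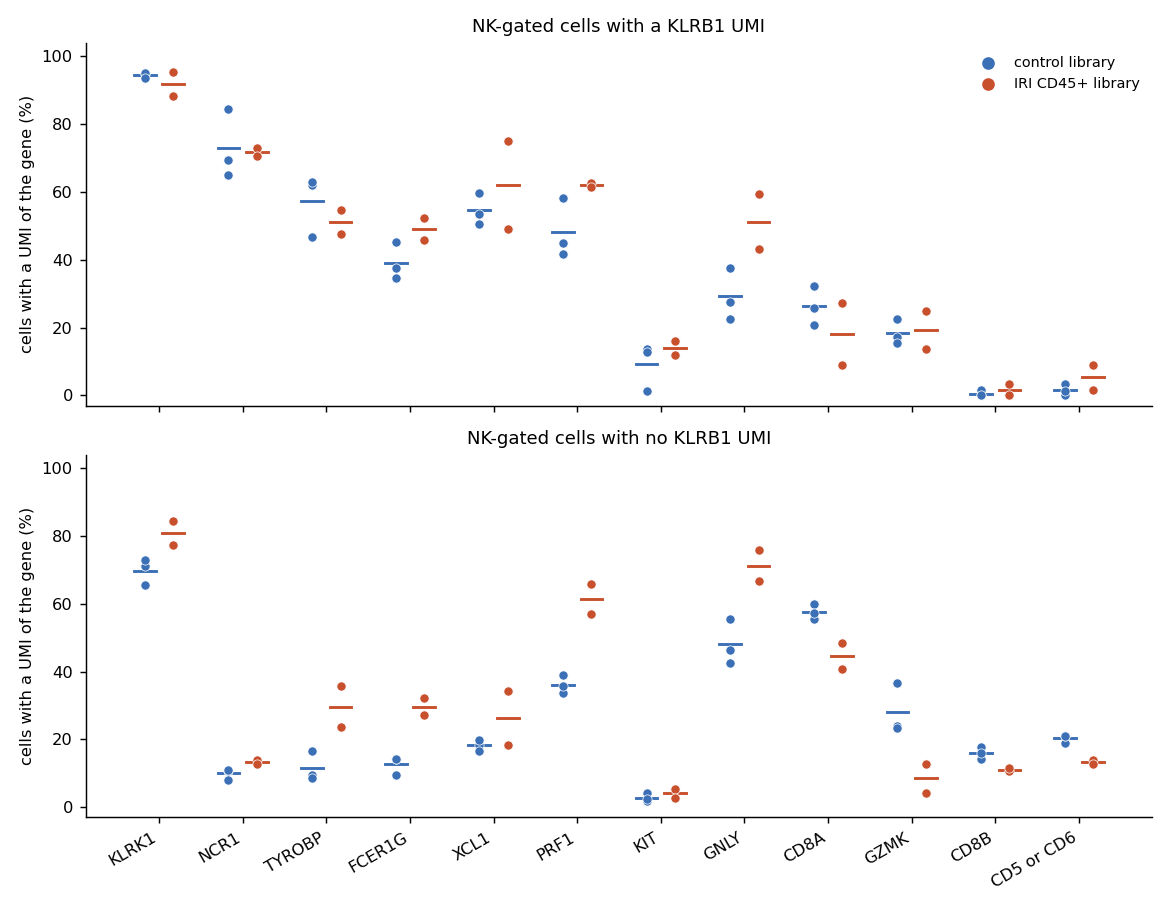
Share of NK-gated cells with a UMI of each gene (y axis, %), for cells with a KLRB1 UMI (upper panel) and without (lower panel); each point is 1 library (blue for 3 control, orange for 2 IRI CD45+) and short lines are group means. TYROBP was detected in 46.8% to 62.9% of the cells with KLRB1 and in 8.64% to 35.7% of those without.

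How often CD3 is lost at a depth of 1500 UMIs was measured in cells known to carry it. This is not the rate at which CD3 was missed in NK-gated cells. Those had median depths of 2421 to 2939 UMIs and were not chosen for CD3 UMIs. CD3-positive cytotoxic cells were defined by the same sum of 5 UMIs over the gate genes and 2 or more CD3 UMIs, which gave 436, 575 and 517 control cells and 501 and 268 graft cells. When each was thinned at random to 1500 UMIs, 29.1%, 29.6% and 28.4% of them in controls and 20.4% and 22.0% in grafts lost every CD3 UMI. Of all CD3-positive cytotoxic cells, 12.2%, 15.1% and 14.7% in controls and 11.98% and 13.1% in grafts then passed the NK gate. For this reason each list of genes below was also counted in 2 subsets. The first is the cells with a UMI of KLRB1, TYROBP, FCER1G or KLRF1, which were 38.4%, 41.1% and 49.8% of control and 65.1% and 71.9% of graft NK-gated cells. A single UMI admits a cell to this subset, and the part of RNA from other cells in these shares was not tested. The second is the cells with no UMI of 6 T lineage genes, 67.5%, 65.2% and 71.1% of control and 72.4% and 77.2% of graft cells.

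RNA of structural and red cells was present in the sums, more in controls than in grafts. Markers of structural lung cells summed to 151, 647 and 1465 UMIs per 1000000 (CPM) in control NK-gated cells and to 15.5 and 6.87 in graft cells. The hemoglobin gene HBB reached 755, 515 and 556 CPM in controls and 0 in both grafts. Myeloid markers did not separate the groups, at 21.5, 35.5 and 160 CPM in controls and 56.3 and 225 in grafts. Dendritic markers overlapped too, at 0, 9.93 and 1.31 against 9.71 and 84.8. The part of RNA from any of these cells in the results below was not tested. B cell markers were at 21.3 or less in each library. Markers of T cells outside the gate summed to 631, 626 and 493 in controls and to 549 and 477 in grafts.

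GNLY supplied 28.0%, 35.8% and 43.0% of the gate UMIs in controls and 37.8% and 37.5% in grafts. GZMB, the granzyme that triggers apoptosis, supplied 11.7%, 10.5% and 5.81% in controls and 24.5% and 21.9% in grafts. The KLRK1 share was 33.8%, 29.7% and 30.8% in controls and 15.96% and 21.1% in grafts, so the granzyme took a larger part and the receptor a smaller part of the gate in both grafts than in any control. As levels, scaled among NK sums by the TMM method, KLRK1 was at 1812, 1882 and 2018 CPM in controls and 1117 and 1443 in grafts. GZMB was at 630.4, 666 and 381 CPM in controls and 1715 and 1501 in grafts. GNLY was at 1503, 2272 and 2823 CPM in controls and 2644 and 2565 in grafts, with the highest control above both grafts. In that control library, the NK-gated cell with most gate UMIs held 384 of them, where the median was 12. All its NK-gated cells together held 2061 GNLY UMIs. The deepest NK-gated cell there held 63134 UMIs, 7.37% of the summed depth. Whether the overlap in GNLY rests on such cells was not tested. XCL1, a marker given for these cells and not used by the gate, was at 379.8, 372 and 196 CPM in controls and 565 and 1267 in grafts, the latter 2 far apart. B cells of the same libraries were chosen to hold no UMI of the gate genes KLRK1 and GNLY. They therefore give no measure of free RNA of these genes. An XCL1 UMI was held by 0.35% to 4.59% of the B cells.

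The first comparison asks how NK-gated cells of the injured, sorted graft differed from those of the control lung. UMIs were summed over cells in each library and compared with edgeR's quasi-likelihood test, and p-values were adjusted by Benjamini-Hochberg over 6793 genes. At an adjusted p under 0.05, 2138 genes were called, 31.5% of those tested: 987 (14.5%) were higher and 1151 (16.9%) lower in grafts. Without any overlap between the groups were 3850 genes (56.7%). Counts of list members below are to be read against these shares. The median log2 change over all genes was -0.03.

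Among cytokine receptor and signalling genes, 12 of 28 tested rose in grafts, 0 fell and 16 were not called, with a median log2 change of 0.65. Over the 17 alternatives 6 to 15 rose and 0 to 3 fell. STAT5A, the transcription factor downstream of interleukin 2 and 15, was at 57.7, 65.0 and 47.9 CPM in controls and 476 and 475 in grafts. Its log2 change was 3.06 ± 0.22 (SE; edgeR adjusted p = 7.8e-09). PIM1, a kinase induced by STAT5, was at 135, 149.7 and 127 CPM in controls and 775 and 884 in grafts and rose by 2.59 ± 0.18 (edgeR adjusted p = 7.8e-09). Both genes had groups that were wide apart and replicates that were close.

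IL2RA, the inducible high-affinity chain of the interleukin 2 receptor, was at 57.7, 75.6 and 31.5 CPM in controls and 326 and 524 in grafts, a log2 rise of 2.95 ± 0.31. The shared signalling chain IL2RB was already high, at 684, 669 and 639.8 CPM, and reached 1102 and 1085, a rise of 0.72 ± 0.14 (edgeR adjusted p = 0.00095). JAK1, the kinase bound to IL2RB, was at 481, 395 and 437 CPM in controls and 1066 and 1106 in grafts and rose by 1.31 ± 0.16. STAT5B rose by 1.95 ± 0.21. In the KLRB1, TYROBP, FCER1G or KLRF1 subset 9 of 27 members rose and 0 fell. STAT5A and PIM1 were called there too, at 2.95 and 2.30, while IL2RB was not, at 0.45 ± 0.18 (edgeR adjusted p = 0.085). The CD3-positive cytotoxic cells of the same libraries, which share the injury and the sort, gave log2 changes of 2.56 for STAT5A, 3.13 for PIM1 and 3.49 for IL2RA.

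Chemokine and cytokine genes were mostly higher in grafts. Of 15 tested, 8 rose and 1 fell (median 1.28). CCL3L1, a macrophage-attracting chemokine, was at 79.5, 43.9 and 41.1 CPM in controls and 316 and 531 in grafts and rose by 2.97 ± 0.29 (edgeR adjusted p = 3.1e-06). CCL4, its neighbour in the same family, was at 1030, 1021 and 674 CPM in controls and 1888 and 2495 in grafts and rose by 1.27 ± 0.18. CSF1, the growth factor of macrophages, was at 45.7, 24.2 and 34.2 CPM in controls and 196 and 117 in grafts and rose by 2.20 ± 0.31. These 3 ligands act on cells of the monocyte lineage. CCL5, the most abundant of the list, was at 7720, 7434 and 6040 CPM in controls and 9567 and 8924 in grafts, a rise of 0.39 ± 0.11 that was not called in 6 of 17 alternatives.

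Interferon gamma did not separate the groups. IFNG was at 103, 101 and 79.5 CPM in controls and 62.8 and 236 in grafts, 1 graft below and 1 above every control, with a log2 change of 0.64 ± 0.50 (edgeR adjusted p = 0.39). It was -0.561 without the second graft library and 1.335, then called, without the first (edgeR adjusted p = 0.000211). The called rise of IL22 rested on very few cells: 41 UMIs in 1 cell of the first graft library and 30 UMIs in 2 cells of the second. Those 3 cells all held KIT, and none held GNLY, GZMA or GZMB.

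Of 32 interferon response genes tested, 20 rose and 1 fell, with a median of 0.86. EIF2AK2, the double-stranded RNA sensor kinase PKR, was at 81.5, 126 and 86.3 CPM in controls and 404 and 468 in grafts, a rise of 2.15 ± 0.22 (edgeR adjusted p = 1.0e-06). GBP1, an interferon-induced GTPase, was nearly equal in the controls at 1688, 1696 and 1689 CPM and stood at 3329 and 3610 in the grafts, a rise of 1.04 ± 0.11. PARP14 rose by 1.69 ± 0.21 and SAMD9 by 1.26 ± 0.20. IFIT1, which binds viral RNA, was the member that fell: 139, 199.7 and 142 CPM in controls and 60.9 and 88.8 in grafts, a fall of 1.11 ± 0.27. The rises were fewer in subsets: 8 of 29 in the KLRB1, TYROBP, FCER1G or KLRF1 subset, and 9 of 28 among cells of 3000 or more UMIs.

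The granule genes changed in both directions. Of 19 tested outside the gate, 5 rose and 4 fell (median 0.16). GZMH, a granzyme common in NK cells, was at 143, 62.0 and 80.8 CPM in controls and 666 and 503 in grafts, a rise of 2.64 ± 0.28 (edgeR adjusted p = 1.3e-05). In the KLRB1, TYROBP, FCER1G or KLRF1 subset its change was 5.77 ± 0.38. PRF1, the pore-forming protein perforin, was at 318, 313 and 349 CPM in controls and 550.1 and 526 in grafts, a rise of 0.72 ± 0.17 (edgeR adjusted p = 0.0043). In that subset PRF1 was not called, at 0.42 ± 0.22 (edgeR adjusted p = 0.2). GZMK, a granzyme of less mature killer cells, was at 274, 203 and 164 CPM in controls and 40.0 and 84.2 in grafts and fell by 1.80 ± 0.32. STX11, needed for granule release, was at 479, 555 and 378 CPM in controls and 147 and 133 in grafts and fell by 1.75 ± 0.22. NKG7, a granule membrane protein, had a change of 0.53 ± 0.18 (edgeR adjusted p = 0.033) and was not called in 10 of its 17 alternatives. GZMH lies on chromosome 7 at 74723800-74727396 and PRF1 on chromosome 14 at 73515306-73520256 in RefSeq's annotation of Sscrofa11.1.

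**Figure D2:**
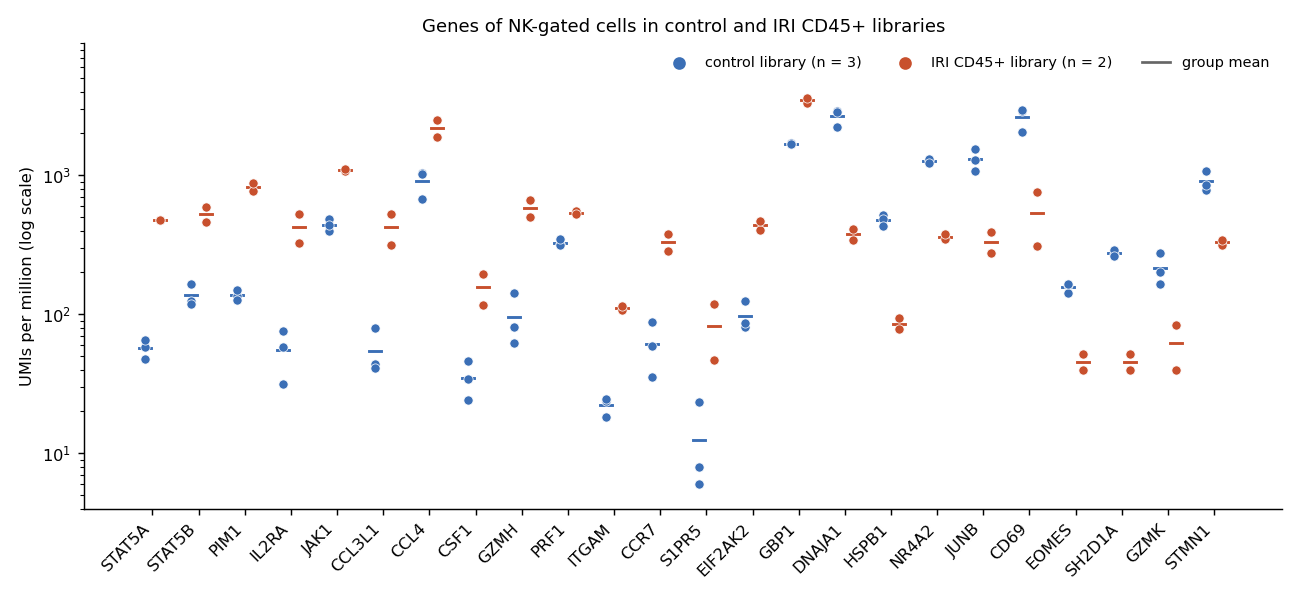
Level of 24 genes in NK-gated cells (y axis, CPM after TMM scaling, log scale), 1 point a library, blue for the 3 control and orange for the 2 IRI CD45+ libraries, with lines at the group means. STAT5A stood at 47.9 to 65.0 in controls and 475 to 476 in grafts, and DNAJA1 at 2214 to 2898 and 341 to 414.

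Of 20 receptor and adaptor genes tested, 5 rose and 8 fell (median -0.20). SH2D1A, the adaptor SAP that turns SLAM-family receptors into activating ones, was at 272, 290.4 and 263 CPM in controls and 40.0 and 51.4 in grafts and fell by 2.60 ± 0.25 (edgeR adjusted p = 5.2e-07). SLAMF6, one of those receptors, fell by 2.29 ± 0.37, from 81.5, 92.3 and 75.3 to 15.2 and 18.7 CPM. CRTAM, an adhesion receptor of activated killer cells, was at 1541, 1523 and 1030 CPM in controls and 581 and 463 in grafts and fell by 1.38 ± 0.19. CD81, a tetraspanin, was at 326, 354 and 327 CPM in controls and 895 and 687 in grafts and rose by 1.24 ± 0.17. SH2D1A and CRTAM were also lower in the KLRB1, TYROBP, FCER1G or KLRF1 subset, with log2 changes of -2.71 and -1.58, and 1 of 17 members rose there and 6 fell.

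The receptors and adaptors best known from NK cells had smaller changes, several of which were lost in alternatives. KLRB1 was at 616, 588 and 633 CPM in controls and 390.2 and 489 in grafts, a fall of 0.48 ± 0.17 (edgeR adjusted p = 0.041), and was not called in 9 of 16 alternatives. KLRD1, the CD94 partner of NKG2 receptors, was at 101, 86.2 and 65.8 CPM in controls and 32.4 and 53.8 in grafts and fell by 0.98 ± 0.33, not called in 6 of 17. TYROBP was at 217, 157 and 190.4 CPM in controls and 249 and 339 in grafts with a change of 0.64 ± 0.22, and FCER1G at 123, 132 and 163 CPM in controls and 225 and 206 in grafts with 0.62 ± 0.22. Each of these 2 adaptors was called, but not in 10 of 16 alternatives. CD8A was at 455, 366 and 290.4 CPM in controls and 194 and 187 in grafts and fell by 0.95 ± 0.22, whereas in the KLRB1, TYROBP, FCER1G or KLRF1 subset its change was -0.33 ± 0.30 (edgeR adjusted p = 0.48). The rise in the share of that subset in grafts went with these values, and its part in them was not tested.

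Among transcription factors, 4 of 24 rose and 8 fell (median -0.17). EOMES, which with TBX21 directs NK and memory killer development, was at 163, 142 and 164 CPM in controls and 40.0 and 51.4 in grafts and fell by 1.78 ± 0.27 (edgeR adjusted p = 6.8e-05). Its change in the KLRB1, TYROBP, FCER1G or KLRF1 subset was -1.67 ± 0.34. TBX21 stood at 195, 160.3 and 164 CPM in controls and 219 and 227 in grafts, a difference of 0.37 ± 0.21 (edgeR adjusted p = 0.19). RUNX3 was at 83.5, 142 and 76.7 CPM in controls and 22.8 and 4.68 in grafts and fell by 2.78 ± 0.48, and ID3 fell by 3.40 ± 0.61. ETS1, needed early in NK development, rose by 0.79 ± 0.14, from 786, 762 and 721 to 1258 and 1365 CPM.

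Genes of trafficking and tissue residency were divided, 7 of 26 higher and 7 lower (median 0.02). CD69, which keeps lymphocytes in tissue and is also an activation marker, was at 2919, 2933 and 2047 CPM in controls and 310.3 and 755 in grafts. It fell by 2.31 ± 0.51 (edgeR adjusted p = 0.045), and the call was lost in 7 of 17 alternatives. S1PR5, an exit receptor of NK cells that CD69 does not block, was at 7.95, 6.05 and 23.3 CPM in controls and 118 and 46.8 in grafts and rose by 2.67 ± 0.52. CX3CR1 of patrolling cells was at 11.9, 3.03 and 6.85 CPM in controls and 30.5 and 28.1 in grafts and rose by 2.04 ± 0.64. Levels of CX3CR1 rest on 2 to 16 UMIs a library, and it was not called in 5 of 14 alternatives. CCR7 was at 87.5, 59.0 and 35.6 CPM in controls and 287 and 376 in grafts and rose by 2.48 ± 0.29. Over all cells of each library, CCR7 was held by 825 of 4957, 1137 of 6556 and 908 of 6365 control cells. In the graft libraries it was held by 2068 of 4922 and 1541 of 4705 cells. The part of free RNA in the CCR7 rise was not tested. The integrin ITGAM was at 23.9, 18.2 and 24.7 CPM in controls and 107 and 115 in grafts, a rise of 2.30 ± 0.32. CD52 fell by 2.30 ± 0.23, from 1163, 1124 and 837 to 159.9 and 264 CPM. Among cells of 3000 or more UMIs only 1 of 22 members of this list rose and 6 fell.

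Immediate-early genes, switched on within minutes of a stimulus or of tissue handling, were often lower: 6 of 32 rose and 12 fell (median -0.24). NR4A2, an orphan nuclear receptor, was at 1291, 1313 and 1218 CPM in controls and 346 and 379 in grafts and fell by 1.81 ± 0.16 (edgeR adjusted p = 1.3e-07). JUNB fell by 1.97 ± 0.20, NR4A1 by 1.82 ± 0.25 and NR4A3 by 2.03 ± 0.24. In cells with 3000 or more UMIs the immediate-early and activation genes counted 5 higher and 5 lower of 31.

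Chaperones moved both ways, 8 of 23 up and 10 down (median -0.20). DNAJA1, a cytosolic co-chaperone of HSP70, was at 2898, 2862 and 2214 CPM in controls and 341 and 414 in grafts, with no control within reach of a graft, and fell by 2.82 ± 0.16 (edgeR adjusted p = 3.8e-10). HSPB1 was at 517, 487 and 434 CPM in controls and 78.0 and 93.5 in grafts and fell by 2.48 ± 0.22. HSPD1, the mitochondrial chaperonin, fell by 2.09 ± 0.19, and HSPA8, the constitutive HSP70, by 1.77 ± 0.14. In the KLRB1, TYROBP, FCER1G or KLRF1 subset 7 of 23 chaperones rose and 10 fell, but in the cells without T lineage UMIs 1 of 22 rose and 11 fell.

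Of 20 cell cycle genes tested, 13 were lower in grafts and 0 higher, with a median of -1.14. STMN1, a microtubule regulator of dividing cells, was at 779.6, 858 and 1081 CPM in controls and 316 and 341 in grafts and fell by 1.47 ± 0.18 (edgeR adjusted p = 8.4e-06). CDK1 fell by 1.94 ± 0.42 and TOP2A by 2.00 ± 0.42. Cells with 2 or more UMIs over 8 cycling genes were 17.5%, 17.4% and 17.99% of control and 5.26% and 4.39% of graft NK-gated cells. After thinning to 1500 UMIs the shares were 11.2%, 9.38% and 11.3% against 0.658% and 2.63%. In the KLRB1, TYROBP, FCER1G or KLRF1 subset 2 of 18 cell cycle genes were called lower, against 12 of 16 in the cells without T lineage UMIs. The former subset held 79, 92 and 119 control and 99 and 82 graft cells, and its SEs were wide. CDK1 was at -1.85 ± 1.02 there (edgeR adjusted p = 0.257) and BIRC5 at -0.488 ± 1.01 (edgeR adjusted p = 0.788). A gene not called in that subset is thus not shown to be unchanged.

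Of 27 genes of hypoxia and glycolysis, 0 rose and 6 fell (median -0.15), a share of falls near that over all genes. Among them was GAPDH at 1048, 1148 and 1022 CPM in controls and 396 and 390.4 in grafts, a fall of 1.45 ± 0.16. Of 40 oxidative phosphorylation genes, 1 rose and 12 fell (median -0.32), 2 of 40 in the KLRB1, TYROBP, FCER1G or KLRF1 subset. COX7B, a subunit of cytochrome c oxidase, was at 694, 520.3 and 601 CPM in controls and 196 and 248 in grafts and fell by 1.45 ± 0.20. Ferroptosis genes, which the title of the study names for macrophages, counted 4 higher and 6 lower of 17 tested in these lymphocytes (median 0.29). SLC1A5, the glutamine transporter, was at 65.6, 71.1 and 54.8 CPM in controls and 141 and 189 in grafts and rose by 1.37 ± 0.25, while TXNRD1 fell by 1.79 ± 0.42. Of 20 apoptosis regulators 6 rose and 5 fell. The survival gene BCL2 was at 113, 71.1 and 84.9 CPM in controls and 402 and 348 in grafts, a rise of 2.07 ± 0.23, and the death-promoting BMF, at 15.9, 22.7 and 17.8 CPM in controls and 110.4 and 79.5 in grafts, also rose, by 2.32 ± 0.35.

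Of 11 checkpoint and costimulatory receptors tested, 3 rose and 2 fell (median 0.18). TNFRSF18, the costimulatory receptor GITR, was at 59.7, 30.3 and 12.3 CPM in controls and 341 and 213 in grafts and rose by 3.10 ± 0.48 (edgeR adjusted p = 0.0021). LAG3, an inhibitory receptor, was at 65.6, 46.9 and 39.7 CPM in controls and rested on 1 UMI in the grafts together, a ratio of 46.8 with a counting interval of 8.2 to 1868.

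The largest rises and falls were not all of NK genes. The 10 largest rises with at least 50 CPM in grafts were TGM3, ARG1, OSM, SERPINB1, ADGRG1, CD24, MAP4K4, ADAM8, TNFRSF18 and STAT5A. ADGRG1, the adhesion receptor GPR56 of mature killer cells, was at 53.7, 25.7 and 104 CPM in controls and 828 and 809 in grafts, a rise of 3.71 ± 0.47. SERPINB1, an inhibitor of granule proteases, was at 109, 110.4 and 60.3 CPM in controls and 1237 and 1307 in grafts and rose by 3.78 ± 0.22. TGM3, a transglutaminase, was at 1.99, 6.05 and 1.37 CPM in controls and 301 and 129 in grafts, but B cells of the same libraries also held it, at 2.25, 1.99 and 0 and 148 and 185 CPM. ARG1, the arginase of myeloid cells, drew 38.8% and 43.4% of its graft UMIs from 1 cell in each library, and was not called in 10 of 17 alternatives. The rest was spread: 30 and 50 graft NK-gated cells held ARG1, against 2, 0 and 3 in controls. Over all cells, it was held by 1552 of 4922 and 2754 of 4705 in the graft libraries. In controls it was held by 220 of 4957, 308 of 6556 and 344 of 6365 cells.

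The 10 largest falls were HBB, CTNNA3, GPHN, ITSN1, TIMP3, COL19A1, HOMER1, CCN1, CDH13 and TEFM. Several of these are genes of red or structural cells, and 7 of them had 0 graft UMIs. Set against a floor of 3 counts over the graft group, HBB was at least 202-fold lower and CTNNA3, a catenin of heart muscle, at least 173-fold lower. The fall of HBB was not called in 4 of 17 alternatives. A single cell held 61.0%, 89.0% and 74.0% of the HBB UMIs in the 3 controls. CTNNA3 was as high in control B cells, at 582, 449 and 567 CPM, as in control NK-gated cells, at 603, 484 and 558, and was at 0 and 0 in graft B cells. COL19A1 behaved alike, at 1236, 1333 and 1030 CPM in control and 2.88 and 5.8 in graft B cells. These 2 falls were thus also seen in a cell type other than NK.

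The second comparison asks what separates NK-gated from CD3-positive cytotoxic cells of the same library. The 10 sums were fitted together with the library as a block, and levels are scaled over these sums. Of 9796 genes 2187 were called (22.3%), 984 higher (10%) and 1203 lower (12.3%) in NK-gated cells, and 2794 genes (28.5%) had the same sign in all 5 libraries. The median over all genes was -0.01. The CD3-positive class was deeper, with median UMIs of 5367.5, 5390 and 5323 in controls and 4474 and 3824 in grafts.

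TYROBP had the largest called difference among the 12 tested NK markers outside the gate. It was at 205, 153 and 184 CPM in control and 249 and 337 in graft NK-gated cells, against 18.3, 41.2 and 21.0 and 86.2 and 66.6 in CD3-positive cytotoxic cells. The difference was 2.42 ± 0.27 on the log2 scale (edgeR adjusted p = 0.00023). FCER1G, its partner adaptor, was at 116, 128 and 158 CPM in control and 224 and 204 in graft NK-gated cells, against 18.9, 48.6 and 34.9 and 122 and 81.5 in the CD3-positive class, a difference of 1.62 ± 0.20. SYK, the kinase both adaptors recruit, differed by 2.02 ± 0.19. Of 21 receptor and adaptor genes 9 were higher and 3 lower. NCR1, a gate gene given without a test, was at 373, 335 and 325 CPM and 422 and 346 CPM in NK-gated cells, and at 13.5, 17.9 and 20.5 and 109 and 111 in the CD3-positive class.

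KLRB1 was higher in NK-gated cells in all 5 libraries but did not pass the test. The difference was wider in controls than in grafts. It was at 582, 571 and 612 CPM in control NK-gated cells and 26.3, 21.5 and 37.7 in control CD3-positive cells, and at 389 and 486 and 199 and 143 in grafts, a difference of 3.16 ± 0.81 (edgeR adjusted p = 0.063). PRF1 was at 300.2, 304 and 338 CPM in control and 549 and 523 in graft NK-gated cells, against 132, 155 and 149 and 316 and 369 in the CD3-positive class, a difference of 0.92 ± 0.12 (edgeR adjusted p = 1.5e-05). CTSW, a protease of killer cells, differed by 0.64 ± 0.09 and IL2RB by 0.73 ± 0.11. NKG7 was nearly level, at -0.04 ± 0.10 (edgeR adjusted p = 0.85), and its sign turned in 5 of 17 alternatives. EOMES differed by 0.35 ± 0.17 (edgeR adjusted p = 0.16) and TBX21 by 0.41 ± 0.12 (edgeR adjusted p = 0.017; not called in 3 of 17 alternatives). Of the 12 tested NK markers outside the gate, 7 were higher in NK-gated cells and 0 lower.

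T lineage genes were lower in NK-gated cells, 12 of 23 with 2 higher. Cells without CD3 were chosen, so this list is not independent of the gate. CD5 was at 35.7, 35.2 and 41.1 CPM in control and 11.4 and 32.5 in graft NK-gated cells, against 124, 118 and 115 and 60.4 and 99.3 in the CD3-positive class, a difference of -1.74 ± 0.17. CD8A was at 429.7, 355 and 281 CPM in control and 194 and 186 in graft NK-gated cells, against 662, 658 and 566 and 331 and 381 in the CD3-positive class, a difference of -0.86 ± 0.11. Checkpoint receptors followed, with 6 of 13 lower and 0 higher: CTLA4 by -2.06, LAG3 by -1.78, PDCD1 by -1.54 and HAVCR2 by -0.93 on the log2 scale.

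**Figure D3:**
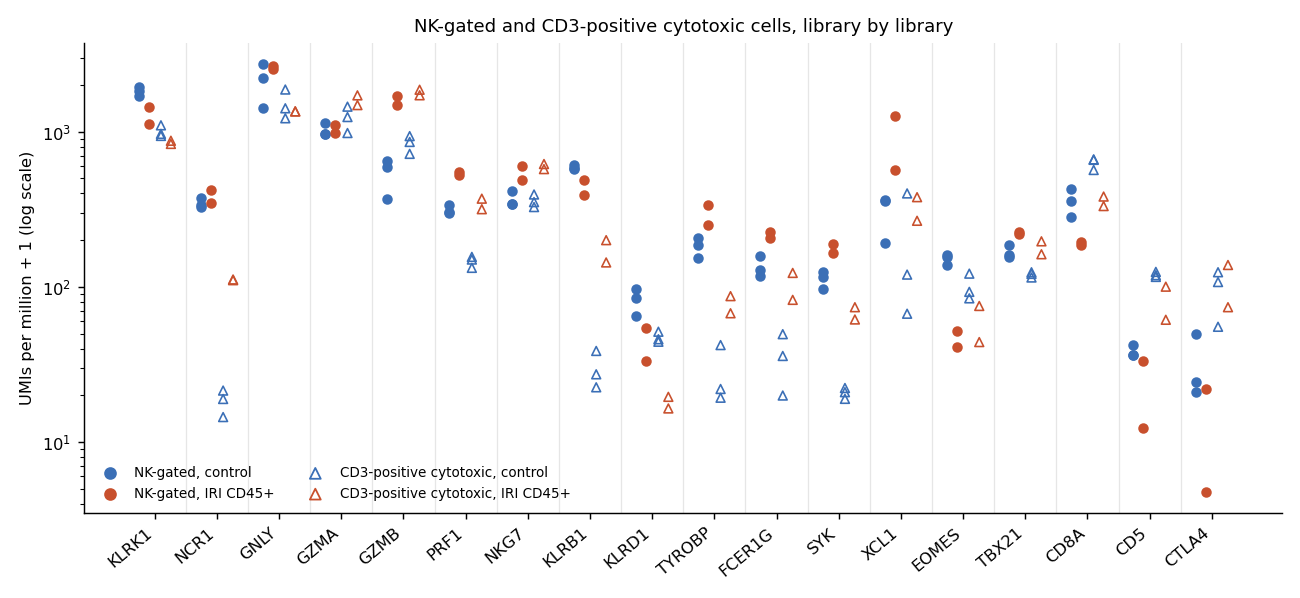
Level of 18 genes (y axis, CPM + 1, log scale) in NK-gated cells (filled circles) and CD3-positive cytotoxic cells (open triangles), 1 point a library, blue for control and orange for IRI CD45+. TYROBP stood at 153 to 337 in NK-gated and 18.3 to 86.2 in CD3-positive cells, while NKG7 overlapped.

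Receptors of cytokines distinguished the classes as well, 13 of 28 higher in NK-gated cells and 0 lower. IL2RA was at 54.4, 73.4 and 30.5 CPM in control and 325 and 521 in graft NK-gated cells, against 8.67, 9.33 and 8.84 and 93.4 and 105, a difference of 2.25 ± 0.18 (edgeR adjusted p = 2.4e-07). KIT, the stem cell factor receptor of immature NK and innate lymphoid cells, was at 45.04, 32.3 and 15.9 CPM in control and 135 and 153 in graft NK-gated cells, against 2.25, 3.35 and 7.58 and 14.5 and 29.7 in the CD3-positive class, a difference of 2.77 ± 0.31. KIT was carried by 14, 11 and 5 control and 12 and 9 graft NK-gated cells. NFIL3, a factor required for NK development, was at 184, 169 and 140.4 CPM in control and 313 and 314 in graft NK-gated cells, against 29.5, 40.0 and 45.7 and 141 and 169.5 in the CD3-positive class, a difference of 1.63 ± 0.21. ID2, which blocks the T and B cell programmes, differed by 0.88 ± 0.09.

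Of 32 immediate-early genes tested, 29 were higher in NK-gated cells and 0 lower, with a median of 0.67. NFKBIA, the feedback inhibitor of NF-kappa-B, was at 1257, 978 and 974 CPM in control and 2418 and 3634 in graft NK-gated cells, against 706, 661 and 584 and 1893 and 1907 in the CD3-positive class, a difference of 0.68 ± 0.09, and KLF4 differed by 1.47 ± 0.18. Over the alternatives the count ran from 22 to 30, with 0 lower in each. Secreted factors were higher for 8 of 19 and lower for 0. IFNG was at 97.6, 98.3 and 76.8 CPM in control and 62.7 and 235 in graft NK-gated cells, against 54.9, 49.3 and 41.7 and 34.0 and 133 in the CD3-positive class, a difference of 0.88 ± 0.14, and CCL4 differed by 0.54 ± 0.10.

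Proliferation and respiration genes were lower in NK-gated cells. Of 20 cell cycle genes 19 were lower and 0 higher (median -1.38). BIRC5, which guides chromosome separation, was at 60.0, 70.5 and 115 CPM in control and 38.0 and 25.6 in graft NK-gated cells, against 275, 252 and 306 and 134 and 137 in the CD3-positive class, a difference of -1.86 ± 0.15 (edgeR adjusted p = 2.7e-07). Cycling cells by the 8-gene rule were 49.3%, 49.0% and 51.3% of control and 19.6% and 20.5% of graft CD3-positive cytotoxic cells. Thinned to 1500 UMIs these shares were 26.1%, 26.3% and 28.6% and 8.78% and 7.46%, still above the thinned NK-gated values given above. Of 40 oxidative phosphorylation genes 35 were lower and 0 higher (median -0.63), a count that ran from 16 to 39 over the alternatives. COX5A differed by -0.92 ± 0.12, and GAPDH by -0.97 ± 0.09. In the KLRB1, TYROBP, FCER1G or KLRF1 subset the counts were 15 of 20 for the cell cycle list, 25 of 40 for oxidative phosphorylation and 25 of 32 for immediate-early genes.

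**Figure D4:**
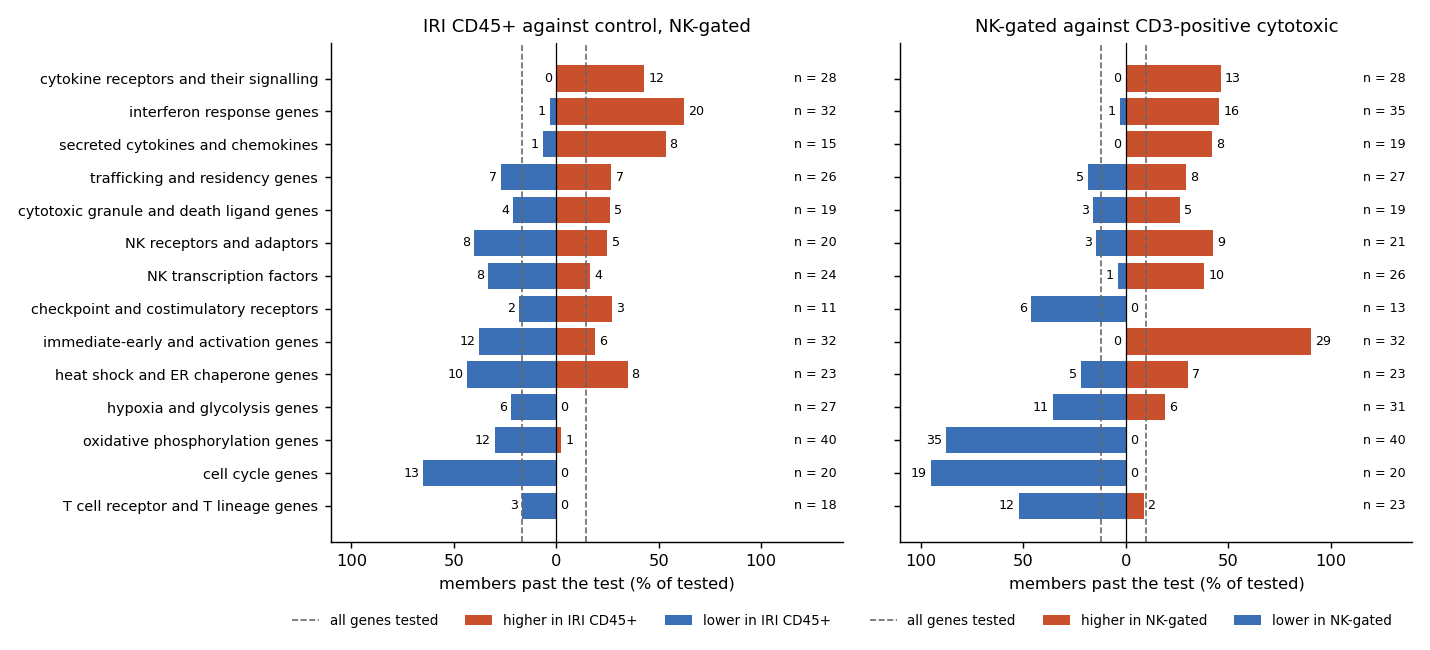
Share of tested members of each gene list past the test (x axis, % of tested; orange higher, blue lower; counts at the bar ends), for IRI CD45+ against control in NK-gated cells (left) and NK-gated against CD3-positive cytotoxic cells (right). Dashed lines give the share over all genes, 14.5% and 16.9% on the left and 10% and 12.3% on the right.

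The third comparison tests whether NK-gated and CD3-positive cytotoxic cells changed differently between control and graft. The class-by-group term was called for 52 of 9796 genes (0.531%), 7 more positive (0.0715%) and 45 more negative (0.459%) in NK-gated cells. Without adjustment, 367 and 681 genes had p under 0.05. Most genes were therefore not shown to change unequally, which does not show that they changed alike.

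KLRB1 differed most of the negative genes named. In NK-gated cells its change was -0.48, and in CD3-positive cytotoxic cells it rose by 2.63 ± 0.23 (edgeR adjusted p = 1.4e-05). The difference was -3.03 ± 0.25 (edgeR adjusted p = 1.7e-06), and it was called in 16 of 16 alternatives. CD3-positive cells were at 26.3, 21.5 and 37.7 CPM in controls and 199 and 143 in grafts, nearer to but not reaching the NK-gated level. The gate gene NCR1 was detected in 4.36%, 5.39% and 6.77% of control and 16.4% and 14.6% of graft CD3-positive cytotoxic cells. Whether the make-up of the CD3-positive class differed between the groups was not tested. KLRB1 lies on chromosome 5 at 62244787-62257691 (Sscrofa11.1).

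SH2D1A fell in both classes and further in NK-gated cells, by 2.60 ± 0.25 against a CD3-positive change of -0.74 ± 0.12, a difference of -1.78 ± 0.26 (edgeR adjusted p = 0.0013; called in 17 of 17 alternatives). IFIT1 went in opposite directions, with -1.11 in NK-gated and 0.69 in CD3-positive cells, a difference of -1.72 ± 0.30 (edgeR adjusted p = 0.0085; called in 14 of 16). In CPM, IFIT1 was at 131, 194 and 138 and 60.8 and 88.3 in NK-gated cells and at 40.5, 43.8 and 41.4 and 67.9 and 63.6 in CD3-positive cells. The graft libraries of the 2 classes stood close together and the control libraries apart. GPR65, a receptor that senses acid, fell by 3.74 ± 0.56 in NK-gated cells against -0.81 ± 0.22 (difference -2.87 ± 0.58; called in 10 of 16). CENPE, a motor protein of mitosis, had a difference of -2.39 ± 0.55 and was called in 4 of 15.

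Among the positive genes, LCP1, an actin-bundling protein of leukocytes, rose by 0.58 ± 0.13 in NK-gated cells and changed by 0.07 ± 0.08 in CD3-positive cells, a difference of 0.60 ± 0.11. EIF1AX, NOLC1, DNMT1 and BATF3 had differences of 1.13 ± 0.22, 1.16 ± 0.26, 1.28 ± 0.29 and 1.99 ± 0.45. EIF1AX was called in 13 of 17 alternatives, LCP1 in 10 of 16, NOLC1 in 9 of 17, BATF3 in 6 of 16 and DNMT1 in 5 of 15. Without the first control library, 0 positive and 15 negative genes were called (250 and 546 at unadjusted p under 0.05), and without the first graft library 7 and 11.

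**Figure D5:**
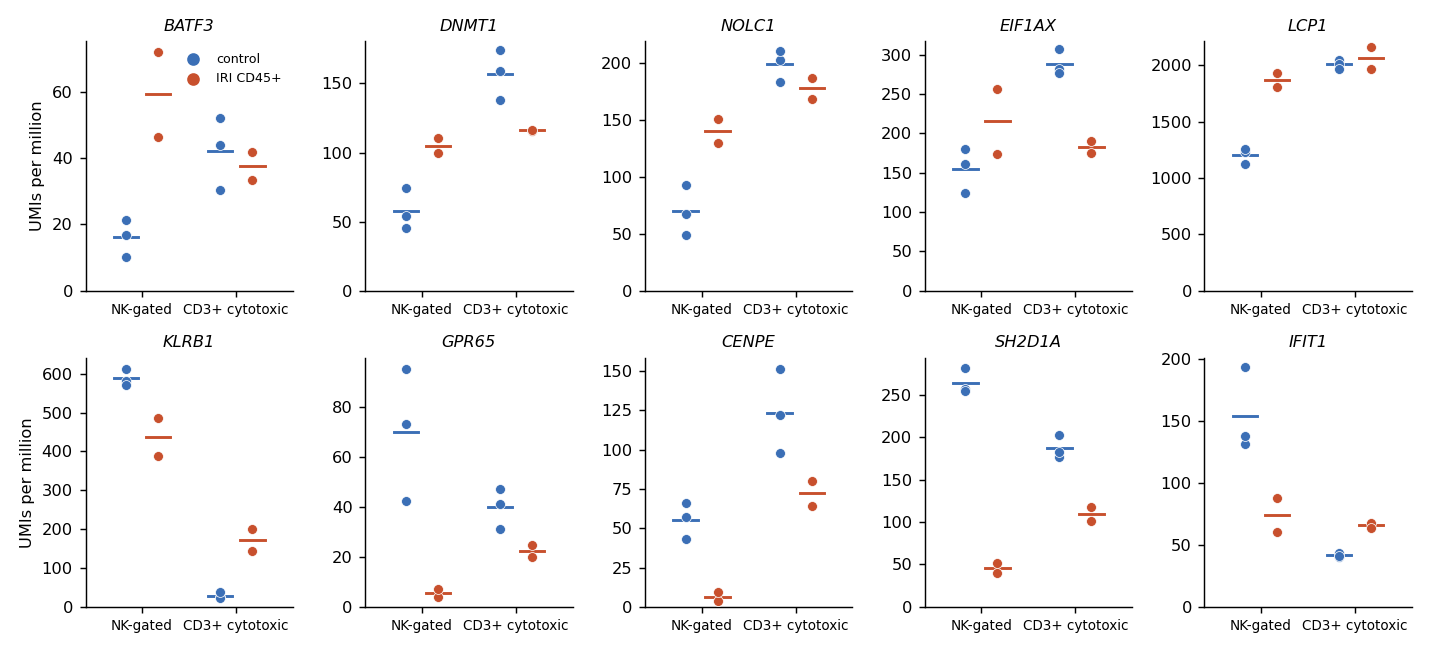
Levels (y axes, CPM, from 0) of the 10 named genes whose change differed between classes, NK-gated at left and CD3-positive cytotoxic at right in each panel; each point is 1 library (blue control, orange IRI CD45+) and lines are group means. KLRB1 stood at 571 to 612 in control and 389 to 486 in graft NK-gated cells, and at 21.5 to 37.7 and 143 to 199 in CD3-positive cells.

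NK-gated cells were 32.1%, 28.0% and 31.6% of cytotoxic cells in controls and 23.3% and 29.8% in grafts, where cytotoxic cells are the NK-gated and CD3-positive classes together. Exact 95% intervals reached from 28.5% to 35.9% in the first control and from 20.1% to 26.7% in the first graft, for counting error only. The mean difference was -4.02 percentage points (exact permutation test, two-sided, p = 0.3), where 0.1 is the smallest p that 3 against 2 libraries allow. The groups overlapped. With cells thinned to 1500 UMIs before gating, it was 70.3%, 66.0% and 69.9% in controls and 52.4% and 55.9% in grafts, a difference of -14.58 points (exact permutation p = 0.1), with no overlap. Thinning also moved CD3-positive cells into the gate, since 28.4% to 29.6% of those cells in controls and 20.4% and 22.0% in grafts lost every CD3 UMI, and its part in this difference was not tested. Among cells of 3000 or more UMIs the sign turned, to 2.72 points (exact permutation p = 0.7). The shares were then 16.1%, 16.8% and 16.4% in controls and 14.4% and 23.9% in grafts, the first graft below and the second above every control. With 10 or more gate UMIs the sign turned as well, to 0.337 points (exact permutation p = 0.9). The sign of the difference was thus not stable over the settings.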

How the data were processed

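Pig lung suspensions were profiled with the DNBelab C Series HT kit on a DNBSEQ-T7, per the labels' protocols. The authors deposited filtered matrices of UMI counts per gene and cell; the submitters' processing notes name PISA v0.12b-15-gb8ca969, Seurat 5.5.3, R 4.2.2 and Sscrofa 11.1, and the aligner is not given in the sources used here. The counting's use of strand is not given either, so a gene and its antisense partner could not be told apart.

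Genes kept the symbols of the files; of 17062 rows named by an Ensembl ID, 139 were given a symbol from RefSeq. The cells were chosen in Python 3.11.15 (scanpy 1.11.5, scipy 1.17.1), and raw counts were summed per library and class. Sums were tested with edgeR 4.0.16 in R 4.3.3 (TMM scaling, filterByExpr, robust quasi-likelihood fit, Benjamini-Hochberg over all genes tested, threshold 0.05) over genes listed in all 5 libraries, leaving out the gate genes. Scripts were tested on simulated data. SEs are the log2 change over the root of the F statistic. Summed depths of 436988 to 856118 UMIs set the precision, and intervals cover counting error only.

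The CD3-positive class needed 2 CD3 UMIs. B cells needed 1500 UMIs, 2 UMIs of CD79A and MS4A1, and no UMI of CD3 or of the killer-cell genes of the gate. Scrublet called 1 to 70 cells a library and did not work, so no doublets were removed, and an alternative left out the top 6% of scores. Named genes were the 10 largest called changes each way with at least 50 CPM in the higher group, a symbol, 10 UMIs over all cells of every library and no overlap between groups (up to 5 each way for the third comparison), the 4 smallest p of each list, and the genes best known from NK cells. Some genes of this rule are not reported here. IL2RA in the first comparison and the genes of the KLRB1 split were chosen after their values were seen. NCR3 and FCGR3A were not listed under these names. The cells and lists were chosen with earlier results of these data known. The CD45- library, and the subsets by innate and T lineage genes, are alternatives chosen after seeing the data. Alternatives cover DESeq2 1.42.0, scaling, filters, depth, gate, doublets, gene length, each library left out and a replicate block. RefSeq coordinates are of Sscrofa11.1, and no sequence is shown.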

Additional observations from a re-analysis of the deposited data

Results flagged for a closer look

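The change between control and graft differed between NK-gated and CD3-positive cytotoxic cells by the class-by-group test (edgeR, adjusted over 9796 genes) for 10 named genes. The log2 differences, NK-gated minus CD3-positive change, were 1.99 for BATF3, 1.28 for DNMT1, 1.16 for NOLC1, 1.13 for EIF1AX and 0.60 for LCP1. They were -3.03 for KLRB1, -2.87 for GPR65, -2.39 for CENPE, -1.78 for SH2D1A and -1.72 for IFIT1. Over the alternatives, the edgeR adjusted p ran over 8.6e-43 to 0.0022 for KLRB1, 5.0e-07 to 0.048 for SH2D1A, 3.2e-05 to 0.13 for IFIT1 and 0.0049 to 0.57 for BATF3. BATF3, a transcription factor of dendritic and lymphoid cells, was at 16.9, 10.3 and 21.2 CPM in control and 72.2 and 46.5 in graft NK-gated cells, and at 52.0, 44.0 and 30.3 and 41.8 and 33.3 in CD3-positive cells. DNMT1, the maintenance DNA methyltransferase, was at 45.04, 54.3 and 74.2 CPM in control and 110.2 and 99.9 in graft NK-gated cells, against 174, 138 and 159 and 115 and 117 in CD3-positive cells. Its difference was called in 5 of 15 alternatives.

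In the sorted CD45- library, which no main comparison used, 80 cells passed the NK gate, 0.842% of its 9500 cells with 1500 or more UMIs. CD45- cells should lack NK cells. Structural markers summed to 45330 CPM in these 80 cells, against 6.87 to 1465 in the NK-gated cells of the other libraries, and 33.8% of the 80 were among the library's highest doublet scores. The part of doublets or of incomplete sorting was not tested.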

How the results depend on the processing

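Of 111 genes named in the control and graft comparison, 66 kept direction and call in every alternative, and of 106 named against CD3-positive cells 80 did; of the 10 named in the third comparison, KLRB1 and SH2D1A did. Of the 2138 genes called between control and graft, 1464 were also called with DESeq2, 1043 of 1762 tested in cells with 3000 or more UMIs, and 1094 of 1785 in the subset with innate markers.

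Counts in NK-gated cells moved to 633 higher with DESeq2, to 477 higher and 604 lower with 3000 or more UMIs, to 554 and 598 for genes under 50 kb, to 760 lower with the CD45- library and to 552 and 603 with innate markers. In CD3-positive cells they were 1069 and 1099 with thinned sums and 1323 and 1369 under 50 kb. Between classes, 599 genes were higher and 605 lower with 3000 or more UMIs. The lower genes numbered 723 with DESeq2, 1805 without a filter, 689 with thinned sums, 605 under 50 kb and 775 with innate markers, and ran from 749 to 1469 with 1 library left out, lowest without control replicate 1 and 771 without control replicate 3. In the third comparison, higher genes were 22 without a filter, 0 with 3000 or more UMIs (221 at unadjusted p under 0.05), 3 with 10 gate UMIs, 12 without top doublet scores, 4 under 50 kb, 25 without T lineage UMIs and 2 with CD3 from 1 UMI. Lower genes there were 92, 6, 37, 76, 50, 94 and 18. With 1 library left out these ranged from 0 to 10 and from 11 to 69, lowest without control replicate 1 and IRI replicate 1. Genes under 50 kb and some subsets test fewer genes; other causes were not tested.

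The share of NK-gated cells turned to 2.72 points with 3000 or more UMIs and to 0.337 with 10 gate UMIs, and ran from -7.30 to -0.736 with 1 library left out. Single genes that reversed, none of them called when reversed, are given here as log2 values. With the CD45- library, CCN1 was at 0.992 and TIMP3 at 0.741. CD163 was at 0.095 with 3000 or more UMIs and 0.426 with the replicate block, and LAT at 0.158 with innate markers. With 1 library left out, CD163 ran from -6.145 to 0.680, IFNG from -0.561 to 1.335 and S100A8 from -0.393 to 0.398. Between classes, C1QB was at 0.544 without top doublet scores, 0.171 with innate markers and 0.163 without T lineage UMIs. COL1A1 was at -0.125 and DERL3 at 0.012 with 10 gate UMIs. EIF1AY was at -0.008 without a filter, -0.128 with 3000 or more UMIs, -0.176 with the CD45- library and -0.057 without T lineage UMIs. NKG7 was at 0.053 with DESeq2, 0.029 with 10 gate UMIs, 0.069 with thinned sums, 0.083 under 50 kb and 0.011 without T lineage UMIs. With 1 library left out, C1QB ran from -1.974 to 0.559, CD163 from -0.136 to 1.037, CD68 from -0.172 to 0.819, EIF1AY from -0.012 to 0.350, S100A8 from -0.261 to 1.315 and ZFY from -0.202 to 0.864. The labels do not say which libraries pair. Deviations of same-numbered libraries from their group mean correlated at -0.022 and -0.021 over genes. The deviations of 2 graft libraries from their own mean mirror each other, so these values cannot show whether libraries pair. A replicate block gave 683 higher and 899 lower genes in NK-gated cells. At median depths of 2421 to 2939 UMIs a cell, a gene without a UMI in a cell is not shown to be absent from it.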

Other observations

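Innate lymphoid genes were also measured in the NK-gated sums. Of 7 tested, 5 rose and 1 fell in grafts. KIT was at 47.7, 33.3 and 16.4 CPM in controls and 135 and 154 in grafts, a rise of 2.19 ± 0.33 (edgeR adjusted p = 8.1e-05). RORA, a nuclear receptor of innate lymphoid and T helper cells, was at 203, 163 and 166 CPM in controls and 306 and 449 in grafts and rose by 1.09 ± 0.21. NRP1, a co-receptor for growth and guidance factors, was at 73.6, 62.0 and 95.9 CPM in controls and 3.81 and 14.0 in grafts and fell by 3.16 ± 0.49. CSF2 rested on 29 UMIs in 3 cells and 12 UMIs in 2 cells of the grafts, with 0, 7 and 0 UMIs in controls. Against CD3-positive cytotoxic cells, 6 of 9 genes of this list were higher in NK-gated cells and 0 lower, with IL7R at 1.03 ± 0.18 and RORA at 0.48 ± 0.12.

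Other genes with the largest differences from CD3-positive cells have no common list. IRS2, an adaptor of insulin signalling, was at 75.1, 114 and 127 CPM in control and 55.1 and 81.3 in graft NK-gated cells against 10.6, 10.8 and 21.7 and 26.1 and 19.0, a difference of 2.41 ± 0.26. SPINT2, a protease inhibitor, differed by 2.26 ± 0.24, and TENT5A, an RNA-tailing enzyme, by 1.92 ± 0.33. CFD, complement factor D, differed by 2.07 ± 0.37, with control levels of 58.2, 131 and 256 that were unlike each other. FABP3, a fatty acid binding protein, was lower by -1.82 on the log2 scale. RGS1, a brake on chemokine receptor signalling, was at 2867, 3690 and 2333 and 3682 and 4406 CPM against 1474, 1591 and 1417 and 2373 and 2525, a difference of 0.87 ± 0.08, and CXCR4 differed by 0.83 ± 0.09.

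The Y-linked genes ZFY and EIF1AY together were at 1.79, 0 and 0 CPM in control NK-gated cells and at 79.6 and 55.0 in graft cells. The same genes summed to 0.504 or less in control CD3-positive cells and to 43.7 and 57.6 in graft ones. Sex of the animals is not given in the labels, and its part in the group differences cannot be told apart from injury and sorting.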
